A study of Mus musculus with 20 samples.

Results

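The 10 genes described here are AP-1 subunits and other immediate early genes of the mouse: *Fos*, *Jun*, *Junb*, *Jund*, *Fosl2*, *Atf3*, *Egr1*, *Ier2*, *Dusp1* and *Zfp36*, out of 54838 genes in the files. They were chosen as immediate early genes that are lower in *Mettl3* knockout tissue and higher in knockout organoids. They were thus selected on their FPKM in knockout and wild-type (WT) cells, and those differences are given as a description with no test. *Fosb*, an AP-1 gene that the study overexpressed, is not among the 10 and is given beside them.

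Immediate early genes are transcribed within minutes of a growth factor, stress or wounding signal, mostly through MAP kinases that act on factors already present at their promoters. AP-1 is a dimer of a Fos-type and a Jun-type protein, or of Jun proteins with each other or with ATF proteins. In the intestinal epithelium AP-1 is known for a part in proliferation and in the response to injury and inflammation, and immediate early genes are also known to be induced when tissue is dissociated into single cells.

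RNA was sequenced from sorted mouse crypt cells (12 libraries) and from intestinal organoids (8 libraries), all of strain C57BL/6. The knockout tissue groups are labelled *Mettl3*-/- and come from mice with floxed *Mettl3* (*Mettl3*fl/fl) that carry both Lgr5-EGFP-IRES-CreERT2 and Villin-CreERT2, as do the organoids, so that Cre is driven in *Lgr5*+ stem cells and in the Villin-expressing epithelium. *Mettl3* encodes the catalytic subunit of the RNA N6-methyladenosine methyltransferase. These mice were given tamoxifen (20 mg/ml) over 4 days. The 4 days are given for the day 3 libraries too, and the start of the day count is not known here. The knockout libraries are from day 3 (1 Lgr5-high and 1 Lgr5-low library), from day 4 (2 libraries of each gate) and from day 6 (2 libraries, with no gate in the labels, although the column header of 1 of them names a low gate). WT tissue has 2 Lgr5-high and 2 Lgr5-low libraries. WT tissue is labelled untreated, while the protocol says that *Mettl3*fl/fl mice also received tamoxifen, so in tissue an effect of tamoxifen and one of the knockout cannot be told apart from the labels. The organoid groups have 2 libraries each. KO AKFP organoids carry retroviral *Ascl2*, *Klf9*, *Fosb* and *Purb*, and KO AKF organoids carry the first 3 of these factors. Both, like the plain KO organoids, are labelled *Mettl3*-/- and were kept in 4-OHT (the active form of tamoxifen) for 2 days, and infected organoids were selected with puromycin. WT organoids were kept in ethanol for 2 days, so 4-OHT and the knockout cannot be told apart either. The titles of the plain KO and WT organoids alone contain "m3-flag", which the labels do not explain. Whether libraries of 1 group are from different mice or cultures is not in the labels, and every p-value measures only the spread between these libraries.

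Values are FPKM, fragment counts divided by transcript length and by library size, which allow levels to be compared between genes. Depth was estimated at 14.9 to 25.5 (in units of 1e6 fragments) per library. *Ier2*, among the shorter of the genes, had at least 2068 fragments in every library, *Jun* at least 5448 and *Jund* at least 5495. For these genes counting error is small beside the level. It was not compared with the spread between libraries, which was very narrow in some groups, such as *Jund* in plain KO organoids (380.2 and 380.7 FPKM). Fragments were not estimated for the others, some of which have far lower levels. The epithelial markers summed to between 2846 and 5264 FPKM in tissue and to between 3181 and 4138 FPKM in organoids. *Mettl3* itself had between 2.75 and 4.99 FPKM in knockout tissue, against 3.42 to 4.86 FPKM in WT tissue, and between 3.33 and 4.22 FPKM in the knockout organoids, against 3.23 and 3.56 FPKM in WT organoids. Its level over the whole gene does not check the deletion of part of it. In tissue 2 libraries had the lowest mitochondrial and the highest defensin and lysozyme shares of the summed FPKM. In replicate 1 of KO day 6 mitochondrial genes took 4.33% and defensin and lysozyme genes 45.8%, and in replicate 1 of KO day 4 Lgr5-high 6.15% and 27.6%. The other tissue libraries had mitochondrial shares of 8.87% to 14.2% and defensin and lysozyme shares of 15.0% to 26.9%, so the second library stood apart mainly by its mitochondrial share, and results that rest on the 2 libraries are also given without them.

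Immediate early genes carry short regulatory sites close to their start. The 250 bases before the RefSeq start (build GRCm38.p6) were searched on both strands, overlaps allowed, in the 8 of the 10 genes with an entry (not *Egr1* and *Ier2*) and in all 32851 promoters. The 5 promoters printed are those in which a CREB/ATF, Jun/ATF or serum response element was found, with the matches to the CRE core, TGACATCA, the CArG box and TATAAA in capitals (matches to the EGR element stay in lower case) and each sequence read 5′ to 3′ on the gene's strand. The CRE core TGACGT, or its reverse complement, lies in *Fos* (66 bases before the start), *Atf3* (8 bases) and *Dusp1* (191 and 143 bases, the second of which is a full palindromic TGACGTCA). TGACGT is found in 6.47% of all promoters and TGACGTCA in 1.55%. *Jun* holds the Jun/ATF element TGACATCA 45 bases before the start (2.93% of all promoters). *Zfp36* holds a CArG box, the element bound by serum response factor, 58 bases before the start (1.47% of all promoters). *Fos* also holds TATAAA 33 bases before its start (12.37% of all promoters). The AP-1 element TGANTCA is in 0 of the 8 windows (6.75% of all promoters), and the EGR element GCGNGGGCG is in *Fosl2* and *Zfp36* (4.7% of all promoters). These matches describe the letters in the windows.
Fos, chr12:85473640-85473889, plus strand: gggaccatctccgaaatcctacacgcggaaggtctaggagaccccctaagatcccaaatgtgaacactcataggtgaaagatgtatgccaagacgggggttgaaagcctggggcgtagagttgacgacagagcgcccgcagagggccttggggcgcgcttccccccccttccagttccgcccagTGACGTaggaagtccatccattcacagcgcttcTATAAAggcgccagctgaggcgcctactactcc
Dusp1, chr17:26508473-26508722, minus strand: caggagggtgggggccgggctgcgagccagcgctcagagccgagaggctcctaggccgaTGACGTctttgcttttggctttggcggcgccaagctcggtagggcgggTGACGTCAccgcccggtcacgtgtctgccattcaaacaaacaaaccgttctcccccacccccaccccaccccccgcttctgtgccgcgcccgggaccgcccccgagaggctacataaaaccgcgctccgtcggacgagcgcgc
Atf3, chr1:191183334-191183583, minus strand: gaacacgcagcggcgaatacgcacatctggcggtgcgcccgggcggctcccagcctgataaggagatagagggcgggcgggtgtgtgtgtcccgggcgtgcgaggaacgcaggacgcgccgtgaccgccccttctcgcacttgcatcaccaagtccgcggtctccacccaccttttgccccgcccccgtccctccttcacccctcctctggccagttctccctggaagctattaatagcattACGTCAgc
Jun, chr4:95052223-95052472, minus strand: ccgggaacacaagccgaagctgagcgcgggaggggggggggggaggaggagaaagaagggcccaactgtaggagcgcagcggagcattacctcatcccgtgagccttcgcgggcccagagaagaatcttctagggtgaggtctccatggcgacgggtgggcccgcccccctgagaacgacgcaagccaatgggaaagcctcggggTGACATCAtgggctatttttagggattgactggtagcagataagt
Zfp36, chr7:28379229-28379478, minus strand: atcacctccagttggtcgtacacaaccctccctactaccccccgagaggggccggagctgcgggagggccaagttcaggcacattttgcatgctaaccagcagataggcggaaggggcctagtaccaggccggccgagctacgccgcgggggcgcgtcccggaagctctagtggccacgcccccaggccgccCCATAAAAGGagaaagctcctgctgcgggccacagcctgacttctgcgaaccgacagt

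In GENCODE M21 (GRCm38, the mm10 build) the AP-1 genes lie at chr12:85473890-85477273 (*Fos*), chr4:95049034-95052222 (*Jun*), chr8:84974484-84978718 (*Junb*), chr8:70698949-70700616 (*Jund*), chr5:32135801-32157842 (*Fosl2*) and chr1:191170296-191218039 (*Atf3*). *Egr1* is at chr18:34859823-34864984, *Ier2* at chr8:84661331-84662852, *Dusp1* at chr17:26505590-26562128 and *Zfp36* at chr7:28376784-28380253. *Jun*, *Jund* and *Ier2* have a single exon. No source used here says that strand was kept in the library or in the counting, and *Jun*, *Junb*, *Jund*, *Dusp1* and *Zfp36* overlap a gene on the opposite strand (*Junos*, *Prdx2*, *Gm11175*, *Ergic1* and *Gm44710*), so reads of the partner may be part of their values.

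In knockout crypt cells the group was lower by day 4 in both gates, except *Jund*, whose libraries overlapped those of WT. Medians over the 10 genes put KO day 3 at 77.7% of WT in Lgr5-high cells and 74.2% in Lgr5-low cells. The medians were 38.6% and 44.2% at day 4, and at day 6 30.1% of the Lgr5-high WT level and 34.0% of the Lgr5-low WT level. In bulk libraries, fewer cells of a type and less RNA per cell cannot be told apart.

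*Fos*, the main Fos-type subunit in every library, had 233 and 186 FPKM in KO day 4 Lgr5-high cells, against 674 and 611 FPKM in WT Lgr5-high cells. In Lgr5-low cells it had 260 and 153 FPKM at KO day 4, against 626 and 497 FPKM in WT. The KO day 6 libraries had 147 and 149 FPKM, the lowest of all tissue libraries, and the single KO day 3 libraries (487 FPKM in Lgr5-high, 377 FPKM in Lgr5-low) lay between WT and day 4. No day 4 or day 6 library reached a WT library, and the fitted difference of log2(FPKM + 1) from WT was -1.62 (standard error 0.28) in Lgr5-high and -1.48 (0.28) in Lgr5-low cells at day 4, and -2.11 against Lgr5-high WT at day 6. *Fosl2*, a Fos-type subunit made more slowly than Fos, was far lower in level. It had 4.10 and 8.08 FPKM in KO day 4 Lgr5-high cells, against 13.1 and 12.2 FPKM in WT, and 9.28 and 10.3 FPKM in KO day 4 Lgr5-low cells, against 12.7 and 13.8 FPKM in WT. At day 6 its 9.75 and 13.7 FPKM overlapped both WT gates.

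Among the Jun-type subunits *Jun*, the most transforming of them, had 157 FPKM in both KO day 4 Lgr5-high libraries, against 452 and 488 FPKM in WT Lgr5-high. It had 171 and 114 FPKM in KO day 4 Lgr5-low cells, against 363 and 298 FPKM in WT Lgr5-low, and 87.4 and 109 FPKM at day 6. *Jun* thus had no overlap between knockout from day 4 on and WT, and its difference from WT Lgr5-high reached -2.26 (0.25) at day 6. *Junb*, which can limit the activity of Jun, had 105 and 82.4 FPKM in KO day 4 Lgr5-high cells, against 167 and 164 FPKM in WT, and 104 and 92.7 FPKM in KO day 4 Lgr5-low cells, against 201 and 152 FPKM in WT. Its day 6 libraries (124 and 115 FPKM) were above all 4 day 4 libraries and below all WT libraries. *Jund*, which is expressed more steadily than the other Jun genes in many cell types, overlapped WT in every knockout group with 2 libraries. It had 314 and 200 FPKM in KO day 4 Lgr5-high cells, against 312 and 286 FPKM in WT, and 342 and 271 FPKM at KO day 6, against 391 and 235 FPKM in WT Lgr5-low. *Atf3*, a stress-induced partner of Jun, had 72.3 and 35.0 FPKM in KO day 4 Lgr5-high cells, against 133 and 156 FPKM in WT, and 47.2 and 31.1 FPKM at day 6. At day 3 it was at 99.6% of the WT mean in Lgr5-high cells, where the other 9 genes were at 75.9% to 90.1%.

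Outside AP-1, *Egr1*, a zinc finger transcription factor induced through serum response factor, had 87.6 and 85.8 FPKM in KO day 4 Lgr5-high cells, against 228 and 203 FPKM in WT. In Lgr5-low cells it had 115 and 62.1 FPKM at KO day 4, against 170 and 128 FPKM in WT. *Ier2*, a nuclear protein made early after growth stimulation, differed widely between the libraries of this gate, with 288 and 124 FPKM in KO day 4 Lgr5-high cells, against 343 and 308 FPKM in WT, and 118 and 85.2 FPKM at day 6. The groups did not overlap for either gene, although 1 *Ier2* day 4 library came close to WT. The 2 genes whose products end signalling or destroy messenger RNA were also lower. *Dusp1*, a phosphatase that inactivates MAP kinases, had 30.9 and 23.2 FPKM in KO day 4 Lgr5-high cells, against 96.6 and 99.7 FPKM in WT, and 18.7 and 20.6 FPKM at day 6, with differences from WT Lgr5-high of -1.83 at day 4 and -2.26 at day 6 that no other of the 10 genes exceeded. *Zfp36*, which binds AU-rich elements and speeds the decay of short-lived messages, had 58.4 and 51.5 FPKM in KO day 4 Lgr5-high cells, against 157 and 148 FPKM in WT, and 56.8 and 46.5 FPKM at day 6.

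**Figure D1:**
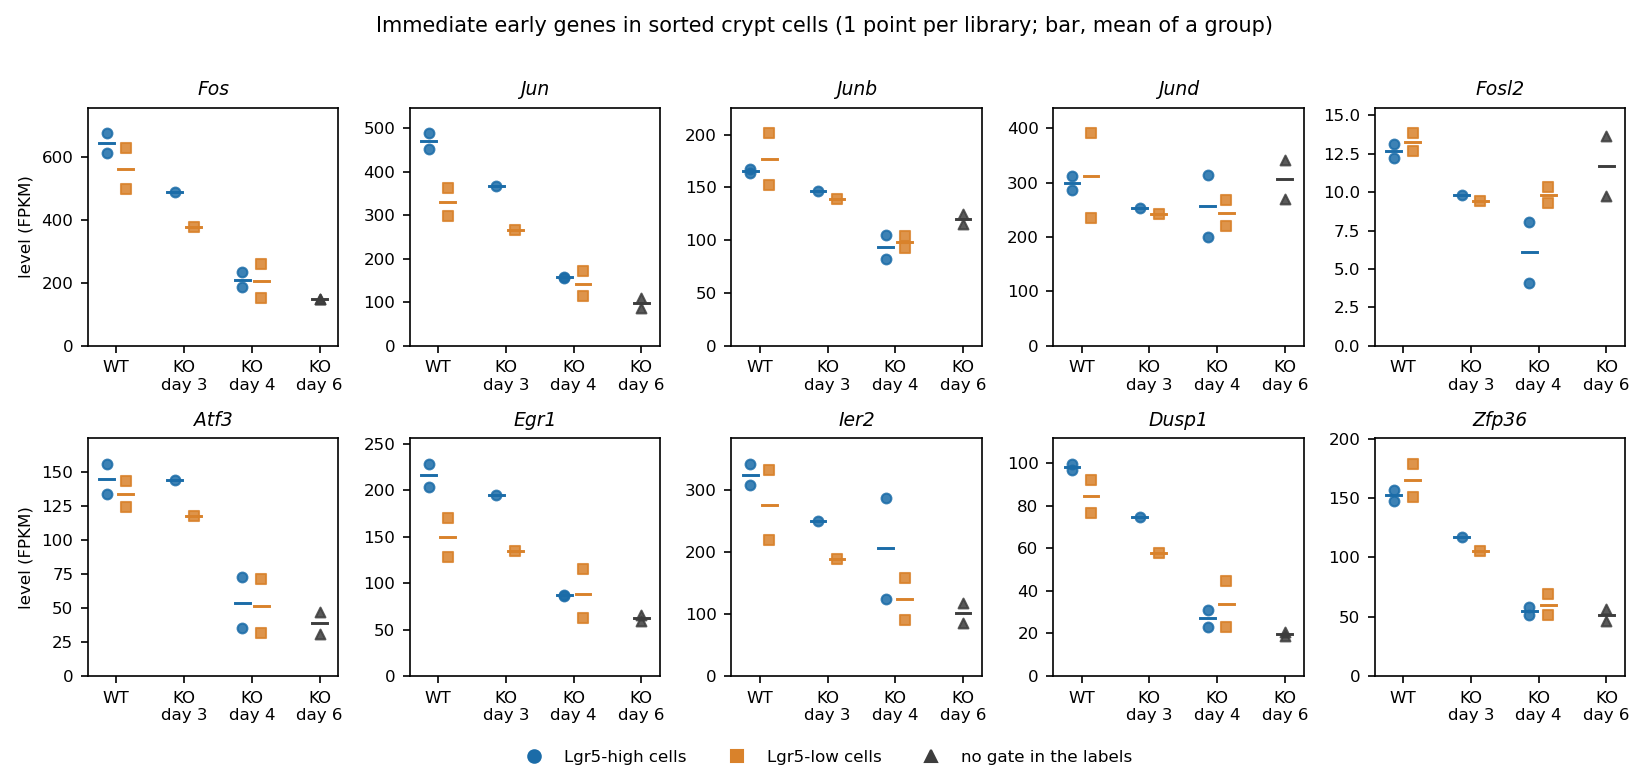
Level in FPKM (vertical axes, linear from 0) of the 10 genes in every tissue library, by group (horizontal axes); circles are Lgr5-high, squares Lgr5-low and triangles the day 6 libraries, and short bars are group means. All but *Jund* lie below the WT libraries of their gate at day 4, *Fosl2* and *Jund* overlap WT at day 6, and *Fos* is at 147 and 149 FPKM there.

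At day 4, 9 of the 10 genes were below WT with no overlap of libraries in Lgr5-high cells, and 21.6% of all 12899 genes tested in tissue were. The same count in Lgr5-low cells was 9, with 24.3% of all genes. At day 6 it was 8 against each WT gate, with 41.7% of all genes against Lgr5-high and 32.8% against Lgr5-low. At day 3 the single library was below both WT libraries for 9 genes in Lgr5-high cells (30.1% of all genes) and for 8 in Lgr5-low cells (30.4% of all genes). The contrast chose the genes, so nothing is read from these counts. The median difference over the 10 genes was -1.38 in Lgr5-high and -1.20 in Lgr5-low cells at day 4, where the median of all genes was -0.02 and 0.03, and -1.73 and -1.54 at day 6, where it was -0.16 and -0.08. Without the 2 libraries that stood apart, the median difference was -1.46 for Lgr5-high at day 4 and -1.81 and -1.62 at day 6. With equal FPKM sums in all libraries, the median of all genes was -0.46 for day 6 against Lgr5-high WT and that of the 10 genes was -2.11. Against Lgr5-high WT the day 6 difference of *Jund* (0.03) became -0.36 with equal FPKM sums, and that of *Fosl2* (-0.12) became 0.06 with median-of-ratios scaling. Against Lgr5-low WT the *Jund* difference of 0.01 became -0.29 with equal FPKM sums.

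Markers of cell types moved with the knockout in tissue, and their part in these levels was not tested. The 6 crypt stem cell markers summed to 1595 and 2158 FPKM in KO day 4 Lgr5-high cells, to 426 and 716 FPKM in KO day 4 Lgr5-low cells and to 120 and 499 FPKM at KO day 6, against 3264 and 3517 FPKM in WT Lgr5-high and 604 and 660 FPKM in WT Lgr5-low. *Olfm4* was the largest part of each sum. In KO day 4 Lgr5-high cells *Ascl2* overlapped WT (31.2 and 40.3 FPKM, against 39.1 and 40.0 FPKM). The other listed markers were below WT there with no overlap, *Smoc2* at 32.7 and 33.7 FPKM, against 39.1 and 42.9 FPKM. *Lgr5* had 2.31 and 6.00 FPKM in these cells and 0.34 and 1.27 FPKM at KO day 6. In WT it had 10.1 and 10.4 FPKM in Lgr5-high and 0.71 and 0.97 FPKM in Lgr5-low cells. The 9 stromal and endothelial markers summed to between 6.26 and 26.0 FPKM at KO day 4 and to 6.18 and 12.3 FPKM at day 6, against 1.31 to 4.75 FPKM in WT, with *Cdh5* at 0 in WT and in KO day 4 Lgr5-high cells. Enteroendocrine, goblet and enterocyte markers were higher in the knockout than in WT Lgr5-high cells. The 5 enteroendocrine markers summed to 569 and 1105 FPKM in KO day 4 Lgr5-high cells and to 576 and 921 FPKM at KO day 6, against 61.6 and 159 FPKM in WT Lgr5-high, and to 1023 and 1523 FPKM in KO day 4 Lgr5-low cells, against 315 and 498 FPKM in WT Lgr5-low. The 5 goblet markers summed to 2771 and 3695 FPKM in KO day 4 Lgr5-high cells and to 3421 and 5410 FPKM at KO day 6, against 771 and 1107 FPKM in WT Lgr5-high. In Lgr5-low cells the goblet sums were 4881 and 7603 FPKM at KO day 4, against 3324 and 4064 FPKM in WT, so at day 4 these 2 lists were higher in either gate with no overlap. The 5 enterocyte markers summed to 287 and 555 FPKM in KO day 4 Lgr5-high cells and to 2261 and 2484 FPKM at KO day 6, against 115 and 168 FPKM in WT Lgr5-high, while the Lgr5-low groups overlapped (1347 and 3554 FPKM at KO day 4, 1266 and 2588 FPKM in WT). The 4 tuft markers summed to 13.0 and 48.9 FPKM in KO day 4 Lgr5-high cells and to 5.92 and 18.8 FPKM at KO day 6, against 4.93 and 8.53 FPKM in WT Lgr5-high. The 5 Paneth markers summed to between 31906 and 53562 FPKM at KO day 4 over both gates and to 42958 and 107200 FPKM at KO day 6, against 26292 to 35896 FPKM in WT. Immune markers overlapped between knockout and WT, with 9 markers summing to between 3.55 and 12.7 FPKM at KO day 4 and to 5.53 and 18.1 FPKM at day 6, against 3.02 to 12.7 FPKM in WT. Of 9 heat shock genes that respond to dissociation and stress, 0 passed in either gate at day 4 against WT (limma, adjusted p under 0.05), and 1 in each gate had an unadjusted p under 0.05, as did 16.9% of all genes in Lgr5-high and 13.7% in Lgr5-low cells. *Hspa1a*, one of them, had 3.78 and 32.5 FPKM in KO day 4 Lgr5-high cells, against 21.4 and 44.5 FPKM in WT, so the library of replicate 1 was the low one.

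The comparisons between gates and between knockout times did not choose the genes, and limma was used to test them on log2(FPKM + 1) over all genes. They use the same tissue libraries as the choice of the genes, so they are not fully separate from it. Between WT Lgr5-high and WT Lgr5-low cells 0 of the 10 genes passed (0 also at an unadjusted p under 0.05), while 1.20% of all genes passed, and 13.6% did at an unadjusted p under 0.05. The nearest were *Jun*, at 0.51 (standard error 0.25, limma adjusted p = 0.415), and *Egr1*, at 0.54 (0.29, limma adjusted p = 0.453), which with *Dusp1* were the 3 genes higher in each Lgr5-high library than in each Lgr5-low library (40.1% of all genes). Between KO day 4 Lgr5-high and Lgr5-low cells 0 of 10 passed, as did 0 of all genes tested with limma, although 2417 genes (18.7%) and 1 of the 10, *Fosl2*, had an unadjusted p under 0.05. The *Fosl2* difference was -0.67 (0.28, limma adjusted p = 0.253), and without replicate 2 of KO day 4 Lgr5-high it was -1.08 (limma adjusted p = 0.0327), in a fit where 1 library stands for that gate, the spread comes from the other groups and 13.6% of all genes passed, while without both libraries that stood apart it was -0.25. Whether the knockout difference at day 4 itself differed between the gates was tested as an interaction. Of the 10 genes 0 passed it with limma (0 at an unadjusted p under 0.05), while 0.0155% of all genes passed it, and 1.73% did at an unadjusted p under 0.05. Estimates ran between -0.61 for *Fosl2* and 0.39 for *Ier2*. Their standard errors of 0.30 to 0.61 mean that differences between gates of that size were not detectable with 2 libraries a group.

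From day 4 to day 6 in knockout cells no gene of the group passed. Against KO day 4 Lgr5-high, KO day 6 gave 0 of 10 with limma (2 at an unadjusted p under 0.05), while 3.21% of all genes passed, and 24.2% did at an unadjusted p under 0.05. *Fosl2* was at 0.88 (0.28, limma adjusted p = 0.112) and *Jun* at -0.68 (0.25, limma adjusted p = 0.145). *Fosl2* passed with median-of-ratios scaling, at 1.03 (limma adjusted p = 0.0326), and, with *Ier2*, when replicate 2 of KO day 4 Lgr5-high was left out, in a fit where the remaining library of that gate is assumed to vary like the other groups and 14.4% of all genes passed. Without both libraries that stood apart the *Fosl2* difference was 0.69 (limma adjusted p = 0.229), and 0 of all genes passed. Against KO day 4 Lgr5-low, KO day 6 gave 0 of 10 with limma (1 at an unadjusted p under 0.05, *Dusp1* at -0.68, adjusted p = 0.602), while 0.0543% of all genes passed, and 8.29% did at an unadjusted p under 0.05.

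In organoids the knockout was the other way round for most of the genes, and smaller. Plain KO organoids were at a median of 127% of WT over the 10 genes, KO AKF organoids at 128% and KO AKFP organoids at 79.8%. The 3 knockout groups share the WT libraries, so their values are given side by side.

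In plain KO and KO AKF organoids the largest difference from WT was that of *Junb*, which had 121 and 115 FPKM in KO AKFP organoids, 220 and 209 FPKM in KO AKF organoids and 248 and 228 FPKM in plain KO organoids, against 138 and 133 FPKM in WT organoids. *Jund* had 266 and 283 FPKM in KO AKFP, 405 and 377 FPKM in KO AKF and 380 and 381 FPKM in plain KO organoids, against 253 and 249 FPKM in WT. *Jun* had 131 and 129 FPKM in KO AKFP, 214 and 250 FPKM in KO AKF and 254 and 232 FPKM in plain KO organoids, against 159 and 184 FPKM in WT. All 3 Jun genes were thus higher in plain KO and KO AKF libraries than in any WT library, while in KO AKFP organoids *Jun* and *Junb* were below and *Jund* above WT. *Atf3* followed *Jun*, with 44.0 and 41.5 FPKM in KO AKFP, 79.1 and 79.9 FPKM in KO AKF and 87.1 and 76.3 FPKM in plain KO organoids, against 52.2 and 53.4 FPKM in WT. *Egr1* had 131 and 140 FPKM in KO AKFP, 157 and 176 FPKM in KO AKF and 182 and 164 FPKM in plain KO organoids, against 121 and 130 FPKM in WT.

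The other 5 genes were near WT in plain KO organoids. *Fos* had 213 and 222 FPKM in KO AKFP, 262 and 253 FPKM in KO AKF and 309 and 264 FPKM in plain KO organoids, against 299 and 304 FPKM in WT. It is the gene that goes against the way the group was chosen, since its plain KO libraries lay on both sides of WT (difference -0.08, standard error 0.09). *Dusp1* had 19.3 and 22.6 FPKM in KO AKFP, 40.6 and 36.3 FPKM in KO AKF and 41.7 and 36.0 FPKM in plain KO organoids, against 35.3 and 39.0 FPKM in WT, so its plain KO and WT libraries overlapped and the difference of 0.06 became -0.04 with equal FPKM sums. *Zfp36* had 49.6 and 50.4 FPKM in KO AKFP, 77.7 and 82.6 FPKM in KO AKF and 83.3 and 77.0 FPKM in plain KO organoids, against 72.8 and 75.8 FPKM in WT. *Ier2* had 151 and 162 FPKM in KO AKFP, 209 and 207 FPKM in KO AKF and 245 and 219 FPKM in plain KO organoids, against 205 and 194 FPKM in WT. *Fosl2* had 14.6 and 13.4 FPKM in KO AKFP, 18.2 and 20.8 FPKM in KO AKF and 17.0 and 17.8 FPKM in plain KO organoids, against 14.8 and 16.8 FPKM in WT. The KO AKFP libraries of these 5 genes were the lowest of the 8 organoid libraries in each case.

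**Figure D2:**
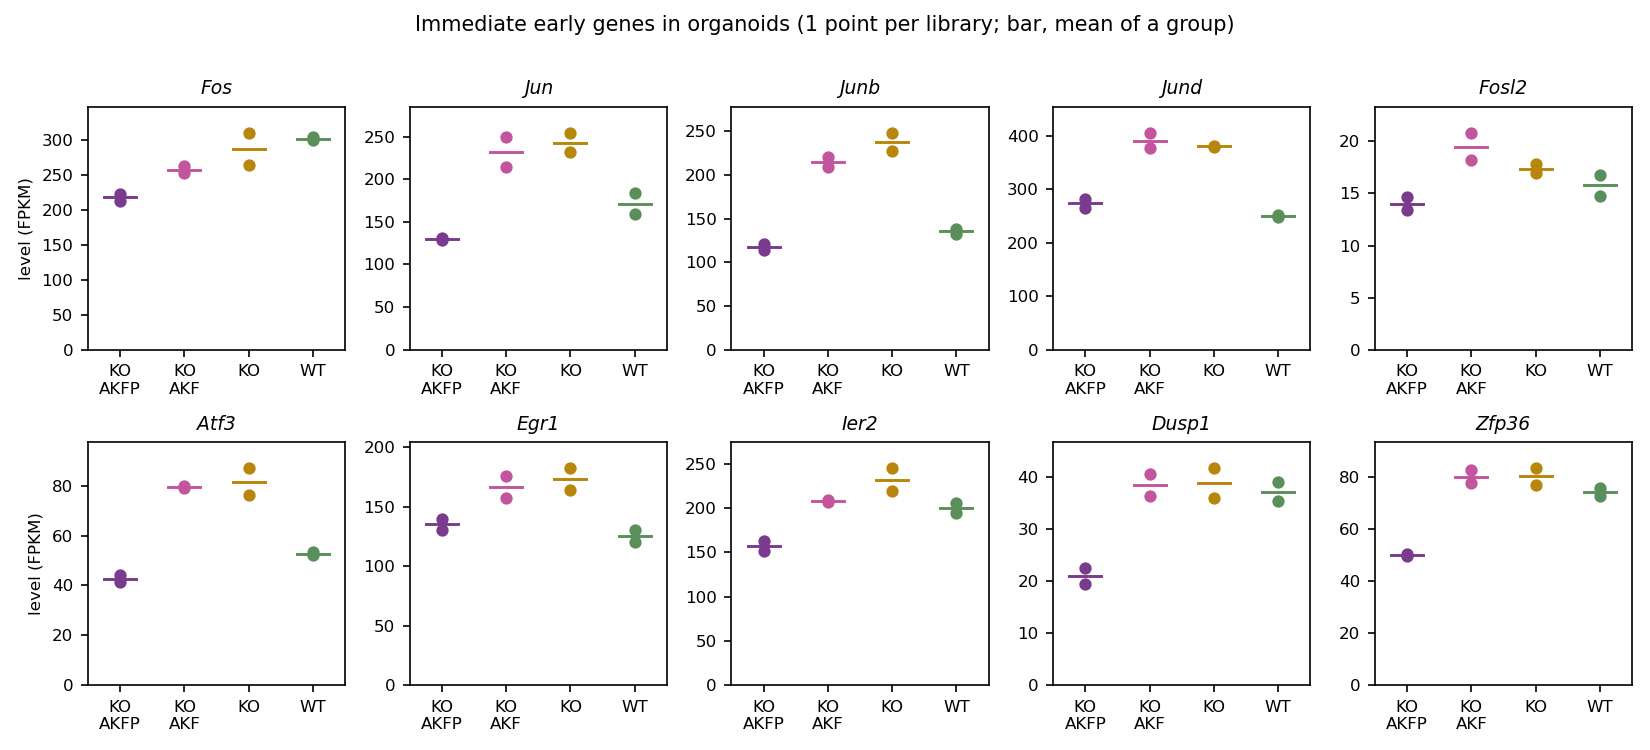
Level in FPKM (vertical axes, linear from 0) of the 10 genes in every organoid library, by group (horizontal axes, 2 points a group, bars are group means). The KO AKFP points lie below the KO AKF and plain KO points in every panel; for *Junb* they are at 121 and 115 FPKM, against 138 and 133 FPKM in WT.

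Above WT with no overlap were 8 of the 10 genes in plain KO organoids (36.6% of all 12657 genes tested in organoids) and 8 in KO AKF organoids (34.8%). Below WT with no overlap were 8 in KO AKFP organoids (32.5% of all genes), the exceptions being *Jund* and *Egr1*. These shares are given as background only, since the contrast chose the genes. The median difference from WT was 0.34 in plain KO, 0.35 in KO AKF and -0.32 in KO AKFP organoids, where all genes had medians of 0.01, 0.01 and 0.05. With equal FPKM sums the plain KO and KO AKF medians were 0.23 and 0.25, and *Dusp1* and *Ier2* in KO AKF organoids turned to -0.05 and -0.04. Without replicate 2 of plain KO the median was 0.42. Cell type markers differed from WT as well, and their part was not tested. The enteroendocrine markers summed to 308 and 357 FPKM in KO AKFP, 687 and 719 FPKM in KO AKF and 648 and 663 FPKM in plain KO organoids, against 257 and 321 FPKM in WT. The goblet markers summed to 1871 and 1954 FPKM in KO AKFP, 2123 and 2360 FPKM in KO AKF and 1768 and 1829 FPKM in plain KO organoids, against 790 and 1032 FPKM in WT. The enterocyte markers summed to 564 and 570 FPKM in KO AKFP, 1032 and 1728 FPKM in KO AKF and 1226 and 1244 FPKM in plain KO organoids, against 2268 and 2425 FPKM in WT. The stem cell markers summed to 776 and 785 FPKM in KO AKFP, 433 and 534 FPKM in KO AKF and 401 and 422 FPKM in plain KO organoids, against 692 and 795 FPKM in WT. The Paneth markers summed to 7414 and 8287 FPKM in KO AKFP, 6996 and 7578 FPKM in KO AKF and 5388 and 6246 FPKM in plain KO organoids, against 3884 and 5114 FPKM in WT. Goblet and Paneth sums were thus above WT in all 3 knockout groups and enterocyte sums below it. Stem cell sums were below WT in plain KO and KO AKF organoids and overlapped it in KO AKFP. *Olfm4* was the largest part of the stem cell sums, and the listed markers did not move alike. In KO AKFP *Lgr5* (11.3 and 11.5 FPKM, against 14.5 and 15.7 FPKM in WT) and *Smoc2* (36.8 and 40.7 FPKM, against 54.5 and 57.5 FPKM) were below WT. *Slc12a2* and the vector gene *Ascl2* were above WT there, and *Olfm4* and *Axin2* overlapped it.

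The vectors of KO AKFP and KO AKF organoids differ by *Purb* in the labels. The choice of the 10 genes took in all organoid libraries, and KO AKF levels were above WT much as plain KO levels were, so the comparison of these groups for the 10 genes is a description and not separate evidence. In both KO AKFP libraries every one of the 10 genes was below both KO AKF libraries, as 28.6% of all genes were. With limma 8 of the 10 were past an adjusted p of 0.05 as lower and 0 as higher, where 12.7% of all genes were lower and 12.8% higher. The largest differences were those of *Atf3* at -0.88 (standard error 0.08) and *Junb* at -0.86 (0.07), with *Dusp1* at -0.85 (0.11) and *Jun* at -0.83 (0.11) close to them. *Zfp36* was at -0.67, *Jund* at -0.51, *Fosl2* at -0.45 and *Ier2* at -0.41. *Egr1* at -0.30 (0.09) and *Fos* at -0.24 (0.09) were the 2 that did not pass. With no filter on low values, 5 of the 10 passed, and leaving out any 1 of the 4 libraries left 7. With equal FPKM sums 7 passed, and the split over all genes became 2549 higher and 1157 lower, where it was 1626 higher and 1613 lower. The median of all genes was 0.15 on that scale, and the 10 genes had a median of -0.47.

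Against plain KO organoids, whose libraries also helped to choose the genes, KO AKFP organoids were lower for all 10 genes with no overlap (31.6% of all genes). The fitted differences ran from -0.30 for *Fosl2* to -1.01 for *Junb*, with a median of -0.62. With limma 9 of 10 passed, all but *Fosl2*, and 13.2% of all genes passed as lower. Since the plain KO levels were a reason for the choice, this count is not separate evidence. This comparison and the one with KO AKF share the KO AKFP libraries. Between KO AKF and plain KO organoids 0 of the 10 genes passed with limma (0 at an unadjusted p under 0.05), while 0.0474% of all genes passed, and 4.60% did at an unadjusted p under 0.05. Estimates there ran from -0.16 for *Ier2* to 0.15 for *Fosl2*, with standard errors of 0.07 to 0.11.

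**Figure D3:**
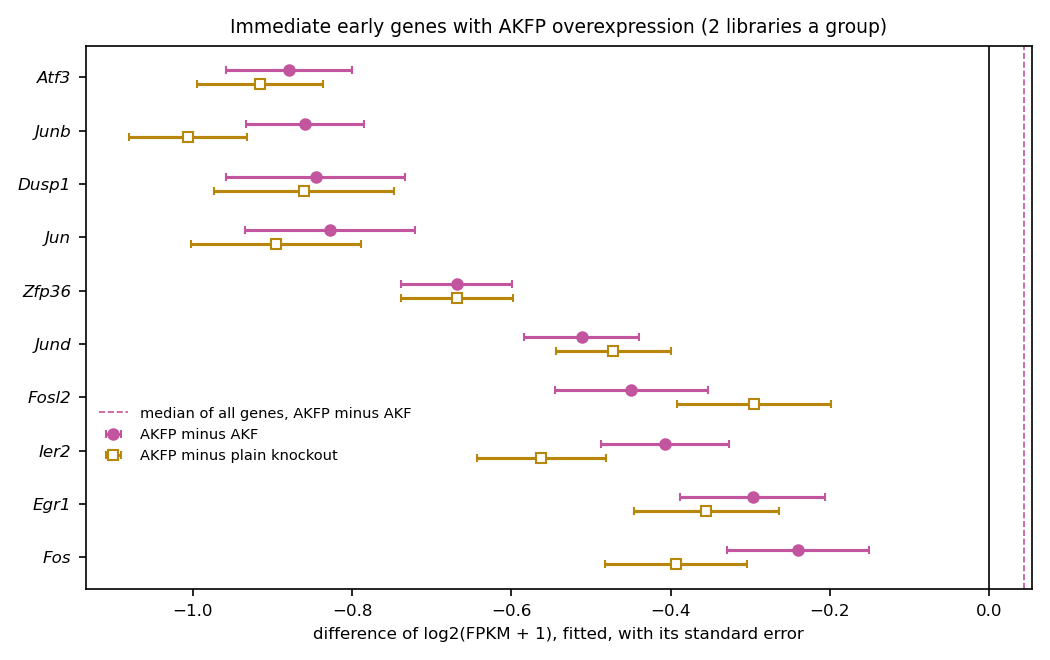
Fitted difference of log2(FPKM + 1) with its standard error (horizontal axis) for each of the 10 genes: filled circles, KO AKFP minus KO AKF; open squares, KO AKFP minus plain KO (2 libraries a group). Every estimate is below 0, from *Atf3* at -0.88 to *Fos* at -0.24 against KO AKF, while the median of all genes (dashed line) is 0.04.

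The overexpressed factors and the cell type markers also differed between the 2 vectors. The vector gene *Fosb* had 12.4 and 9.77 FPKM in KO AKFP, 25.8 and 26.7 FPKM in KO AKF and 38.2 and 25.4 FPKM in plain KO organoids, against 31.8 and 33.2 FPKM in WT, so no library with a vector was above the WT libraries. *Fosb* fell in KO AKFP against KO AKF organoids, by 1.18 on the log2 scale (standard error 0.18, limma adjusted p = 0.00707). *Ascl2* had 19.0 and 19.2 FPKM in KO AKFP and 36.8 and 38.6 FPKM in KO AKF, against at most 12.4 FPKM in plain KO organoids. *Klf9* had 36.0 and 38.4 FPKM in KO AKFP and 11.1 and 10.7 FPKM in KO AKF, against 7.79 and 7.90 FPKM in plain KO organoids. *Purb* had 19.5 and 16.5 FPKM in KO AKFP, 15.9 and 16.8 FPKM in KO AKF and 14.3 and 17.1 FPKM in plain KO organoids, against 22.9 and 25.5 FPKM in WT. Its KO AKFP libraries thus overlapped those of KO AKF and plain KO and lay below WT. Organoids with the 2 vectors thus differed in the levels of *Ascl2* and *Klf9*. By the labels they also differ in whether they carry *Purb*, whose level did not separate them. Of the sums given above, the enteroendocrine, goblet and enterocyte ones were lower in KO AKFP than in KO AKF with no overlap. Stem cell sums were higher with no overlap, and Paneth sums overlapped. Epithelial markers summed to 3181 and 3308 FPKM in KO AKFP and to 3552 and 4138 FPKM in KO AKF. Among them *Krt8*, *Krt18* and *Krt19* were lower, *Cdh1* and *Cldn7* higher, and *Epcam* and *Vil1* overlapped. Stromal markers summed to 1.91 and 2.16 FPKM in KO AKFP and to 4.27 and 4.77 FPKM in KO AKF. Immune markers summed to 0.84 and 1.13 FPKM in KO AKFP and to 1.68 and 2.22 FPKM in KO AKF, with *Ptprc*, *Cd8a*, *Col3a1*, *Dcn* and *Cdh5* at 0 in all organoid groups. Their part in the lower values was not tested.

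The make-up of the Jun genes differed between knockout and WT tissue, which describes the same levels as above. *Jund* made up 61.8% and 54.7% of the summed FPKM of *Jun*, *Junb* and *Jund* at KO day 6. At KO day 4 its share was 54.5% and 45.6% in Lgr5-high and 49.4% and 51.6% in Lgr5-low cells, against 33.5% and 30.5% in WT Lgr5-high and 40.9% and 34.2% in WT Lgr5-low. Every knockout library from day 4 on was above every WT library. *Jun* made up 27.3% and 35.7% in KO day 4 Lgr5-high cells, against 48.5% and 52.1% in WT Lgr5-high. The single day 3 libraries, with 33.1% and 37.3% of *Jund*, lay within the WT range. In organoids *Jund* took 51.3% and 53.7% in KO AKFP, 48.3% and 45.1% in KO AKF and 43.1% and 45.3% in plain KO, against 45.9% and 44.0% in WT. Among the Fos genes *Fos* kept the lead throughout, with group means between 83.8% and 88.8% of the summed FPKM of *Fos*, *Fosb*, *Fosl1* and *Fosl2* in the groups of 2 libraries. *Fosl1*, a Fos-type subunit known from invasive and wound-edge epithelium, was low everywhere, between 0.21 and 6.55 FPKM.

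**Figure D4:**
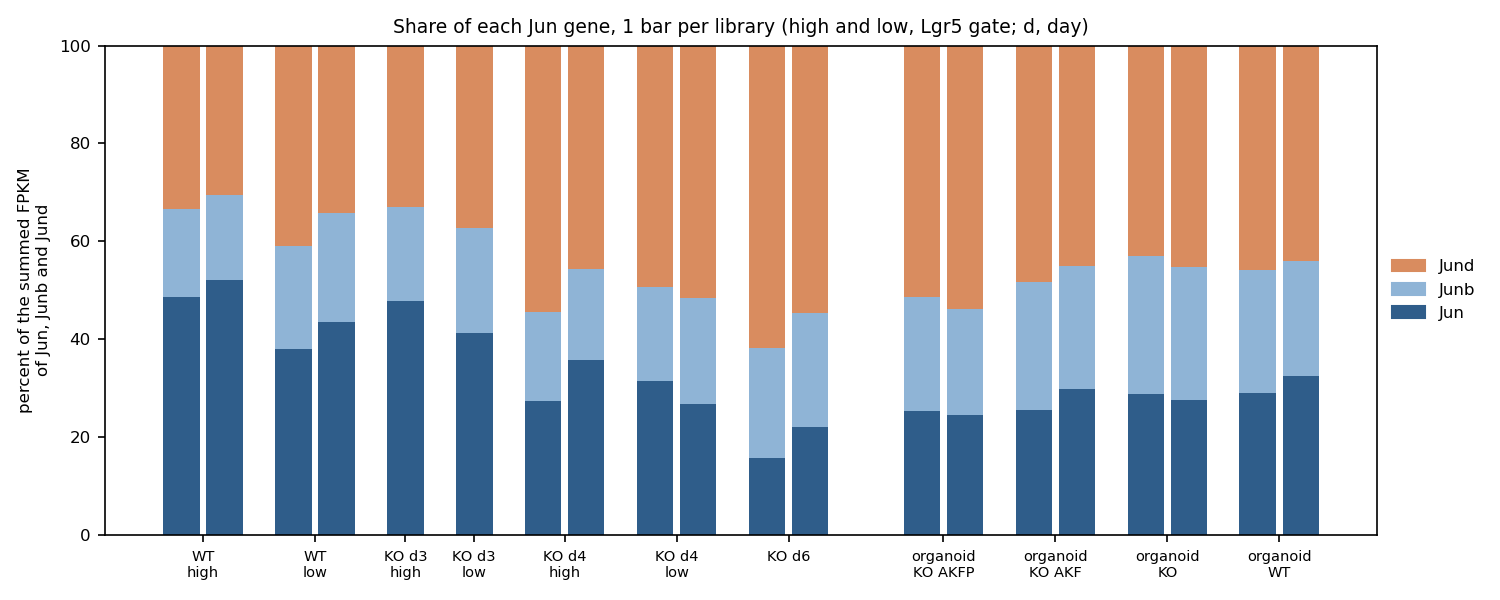
Share of each Jun gene in the summed FPKM of *Jun*, *Junb* and *Jund* (vertical axis, percent), 1 bar per library, grouped along the horizontal axis with tissue at the left and organoids at the right. The *Jund* share is 54.7% and 61.8% at KO day 6 and between 30.5% and 40.9% in the WT tissue libraries.

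Most of the 10 genes varied together, and a few did not. Over the 12 tissue libraries, which span knockout and WT and differ in the gate, Pearson's r between a gene and the mean of the other 9 on the log2 scale was 0.99 for *Fos*, 0.98 for *Dusp1*, 0.97 for *Zfp36* and 0.95 for *Jun*, but 0.32 for both *Jund* and *Fosl2*. Over the 8 organoid libraries it ran from 0.98 for *Jun* and *Atf3* to 0.56 for *Fos*. The genes outside the 10 whose levels were most like their mean were, in tissue, *Fosb* (r = 0.97), *Klf11* (0.97), *Mycn* (0.96), *Tjp3* (0.96) and *Csrnp1* (0.95). In organoids they were *Ier5* (0.99), *Nr4a1* (0.99), *Mib2* (0.99), *Ptpn18* (0.99) and *H2-Q4* (0.99). The libraries fall into groups by genotype, so these values describe that split.

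Of other immediate early genes, few passed in tissue at day 4 and most passed in organoids, which does not show that the 2 systems differ. Of 34 listed, 31 could be tested in tissue and 33 in organoids with limma. At day 4 0 rose and 2 fell in Lgr5-high knockout cells (0.729% of all genes rose and 0.326% fell), *Csrnp1* and *Klf10*, and 0 rose and 3 fell in Lgr5-low cells (0.279% rose and 0.194% fell), *Plk3*, *Csrnp1* and *Nfkbia*. At an unadjusted p under 0.05 there were 17 of 31 in Lgr5-high cells (16.9% of all genes) and 10 of 31 in Lgr5-low cells (13.7% of all genes), and the list medians were -0.55 and -0.29, against -0.02 and 0.03 for all genes. At day 6, 3 rose and 9 fell against Lgr5-high WT (10.1% of all genes rose and 11.9% fell). *Plk2*, a polo-like kinase, rose by 1.61 (standard error 0.25, limma adjusted p = 0.00409), and *Per1*, a clock gene that is also induced at once by serum, fell by 1.91 (limma adjusted p = 0.0043). Set against Lgr5-low WT, 2 rose and 6 fell at day 6 (6.22% of all genes rose and 5.25% fell). The list median there was -0.15, against -0.08 for all genes. In plain KO organoids 21 rose and 1 fell (16.7% of all genes rose and 11.5% fell), among them *Nfkbia*, the inhibitor of NF-kappaB, at 1.16 and *Csrnp1* at 0.88 (limma adjusted p = 0.000502 and 0.00068). In KO AKFP against KO AKF organoids 0 rose and 23 fell (12.8% and 12.7% of all genes). *Ier5* fell by 0.92 (limma adjusted p = 0.000387), and *Gadd45a*, a growth arrest gene, was at -1.26 and *Ccn1*, a secreted matrix protein, at -1.16 (limma adjusted p = 0.000643 for both). The median of the 33 genes there was -0.44, against 0.04 for all genes.

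Other AP-1 genes and dimer partners went both ways. Of 14 listed, 12 were tested in tissue, where 0 rose and 1 fell at day 4 in Lgr5-high knockout cells (0.729% and 0.326% of all genes): *Fosb*, by 1.97 (standard error 0.32, limma adjusted p = 0.0337). *Fosb* had 26.2 and 23.5 FPKM in these cells, against 92.6 and 108 FPKM in WT Lgr5-high cells, and 10.7 and 12.9 FPKM at day 6. In day 6 cells 3 rose and 1 fell against Lgr5-high WT (10.1% and 11.9% of all genes), with *Batf2*, a partner of Jun in immune cells, at 1.92 (limma adjusted p = 0.0031) and the small Maf gene *Mafg* at 0.77 (0.0236). Set against Lgr5-low WT, 2 rose and 1 fell (6.22% and 5.25% of all genes). Of 11 tested in organoids, 5 rose and 0 fell in plain KO (16.7% and 11.5% of all genes), among them *Jdp2*, a Jun partner that represses AP-1 sites, at 0.97 (limma adjusted p = 0.00174). In KO AKFP against KO AKF organoids 1 rose and 6 fell (12.8% and 12.7% of all genes), with *Maff* at -0.83, *Mafk* at -0.69 and *Fosl1* at -0.64 (limma adjusted p = 0.00134, 0.00363 and 0.00593).

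Genes that feed back on MAP kinases rose or did not pass in tissue. Of 14 dual-specificity phosphatase, Sprouty and Spred genes, 0 passed at day 4 in either gate with limma (5 in Lgr5-high and 6 in Lgr5-low cells at an unadjusted p under 0.05, where 16.9% and 13.7% of all genes were). At day 6, 4 rose and 0 fell against Lgr5-high WT (10.1% and 11.9% of all genes) and 6 rose and 0 fell against Lgr5-low WT (6.22% of all genes rose there and 5.25% fell). *Dusp6*, a MAP kinase phosphatase, had 25.9 and 20.9 FPKM at KO day 6, against 2.27 and 2.38 FPKM in WT Lgr5-high and 2.79 and 4.52 FPKM in WT Lgr5-low. It rose by 2.87 (standard error 0.38, limma adjusted p = 0.0023) against Lgr5-high WT, where *Dusp1* was at -2.26. *Dusp14* rose by 1.66 and *Spry4* by 1.18 (limma adjusted p = 0.00247 and 0.00306). In plain KO organoids 6 of the 14 rose and 0 fell (16.7% and 11.5% of all genes), and in KO AKFP against KO AKF organoids 2 rose and 4 fell (12.8% and 12.7% of all genes), with *Dusp5* at -0.66 and *Dusp2* at -0.75 (limma adjusted p = 0.00183 and 0.00951). Of 23 tested genes of the MAP kinase cascade and of the factors it activates, 0 passed at day 4 in either gate with limma (1 in each gate at an unadjusted p under 0.05), and 3 rose and 0 fell at day 6 against Lgr5-high WT, with *Hras* at 1.28 and *Map2k1* at 0.82 (limma adjusted p = 0.0178 and 0.0375), a share near the 10.1% of all genes that rose. Against Lgr5-low WT 1 rose and 0 fell. In plain KO organoids 3 rose and 4 fell, with *Egfr* at 0.44 (limma adjusted p = 0.00849), and in KO AKFP against KO AKF 3 rose and 1 fell, again near the shares of all genes in these comparisons (16.7% and 11.5% in plain KO, 12.8% and 12.7% in KO AKFP).

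*Zfp36l2*, a paralogue of *Zfp36* that also promotes messenger RNA decay, fell in both systems against 1 WT group each. It had 40.5 and 60.4 FPKM at KO day 6, against 192 and 172 FPKM in WT Lgr5-high cells (fell by 1.86, standard error 0.34, limma adjusted p = 0.00718). Against WT Lgr5-low cells, with 108 and 86.3 FPKM, it did not pass at day 6. In organoids it had 97.0 and 99.3 FPKM in plain KO, against 139 and 158 FPKM in WT (fell by 0.59, limma adjusted p = 0.00625). Of 3 genes in that list, 2 rose and 0 fell in KO AKFP against KO AKF organoids (12.8% and 12.7% of all genes). These were *Zfp36l2* at 0.37 and *Elavl1*, which stabilises AU-rich messages, at 0.50 (limma adjusted p = 0.0341 and 0.00905). A list of 3 genes is too short to read a share from. Of the 8 heat shock genes tested in organoids, 5 rose and 0 fell in plain KO (16.7% and 11.5% of all genes). *Hspa1a* had 8.92 and 7.46 FPKM there, against 2.35 and 2.40 FPKM in WT (rose by 1.44, limma adjusted p = 0.000373), and 3.57 and 3.77 FPKM in KO AKFP, against 7.91 and 8.01 FPKM in KO AKF organoids. These 5 heat shock genes were higher in the same plain KO organoids as the immediate early genes, and their part in that was not tested.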

How the data were processed

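RNA-seq values of 12 tissue and 8 organoid libraries were used. The authors deposited FPKM per gene, per the file headers of the tissue files. No unit stands in the header of the organoid table, and its deposited values were taken as FPKM because its gene rows, number format and range are those of the tissue files. HISAT2 2.1.0, StringTie 1.3.3b and mm10 were used, per the submitters' processing notes, which give no roles. Of 54838 gene rows, 54809 matched GENCODE M21. No 2 libraries were identical.

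Differences were fitted with limma 3.58.1 (R 4.3.3; lmFit and eBayes with trend, two-sided, Benjamini-Hochberg over all genes, adjusted p under 0.05) on log2(FPKM + 1), which understates the change of low genes. A gene entered a fit with 1 FPKM or more in 2 or more of its libraries, as all 10 genes did. The tissue fit held 10 libraries in groups of 2, and the organoid fit 8. Day 3 has 1 library a gate and no test. Depth was estimated from the value of 1 fragment in single-exon genes, a rough estimate. Of 13354 such genes, the 3047 to 3850 with a value above 0 in a library were used. The fit was checked on simulated data.

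The 10 genes and the lists were chosen with earlier results of these data known. The text names all 10, *Fosb*, *Fosl1*, *Mettl3*, *Lgr5* and *Epcam* where needed, from each list the 3 genes with the smallest unadjusted p in a comparison, and the 5 genes most like the group. *Hspa1a* in tissue, *Dusp6* levels, *Zfp36l2* levels and the vector genes were chosen after their values were seen. Some genes that this rule names are left out of the text. The replicate number was not taken to pair the libraries.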

Additional observations from a re-analysis of the deposited data

Results flagged for a closer look

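For 5 of the 10 genes, every plain KO organoid library was above both WT organoid libraries while every KO day 4 and day 6 tissue library was below every WT tissue library. The difference between the 2 systems was not tested, and its direction is fixed by how the genes were chosen. The share of all genes that met both conditions was not counted, so nothing is read from the count of 5. *Jun* was at 0.50 on the log2 scale in organoids and at -1.60 over days 4 and 6 in tissue, and *Junb* at 0.81 and -0.72. *Atf3* was at 0.62 in organoids and -1.60 in tissue, and *Egr1* at 0.46 and -1.20. *Zfp36* was at 0.11 (standard error 0.07) in organoids, which became 0.004 with equal FPKM sums, and at -1.50 in tissue. The 2 sets differ in treatment (4-OHT in organoids, tamoxifen in mice), time and culture.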

How the results depend on the processing

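No median over the 10 genes given against WT changed direction under the alternatives run. Of 150 estimates for single genes, 15 changed direction under another scaling. In the main analysis none of these was larger than 0.22 in size or past the threshold. Under another scaling they could be larger, as for *Jund* at KO day 6 against WT Lgr5-high (-0.36 with equal FPKM sums). Over single libraries left out, the median difference ran from -0.831 to -1.54 for KO day 4 Lgr5-low against WT Lgr5-low, from -1.33 to -1.75 for KO day 6 against WT Lgr5-low, from 0.277 to 0.416 for plain KO against WT organoids and from 0.259 to 0.432 for KO AKF against WT organoids. With equal FPKM sums, KO day 6 was at -2.11 against Lgr5-high and -1.83 against Lgr5-low WT, plain KO organoids at 0.233 and KO AKF organoids at 0.248. With 0 of the 10 genes passing in the main analysis, 0 to 1 passed between the KO day 4 gates over single libraries left out, 0 to 2 passed between KO day 6 and KO day 4 Lgr5-high, and 1 passed there with median-of-ratios scaling. For KO AKFP against KO AKF, 5 of 10 passed with no filter on low values, where more genes are tested, and 7 with any library left out. For KO AKFP against plain KO, 6 to 8 passed with 1 library left out. The organoid libraries helped to choose the genes, so these counts for KO AKFP are a description and not separate evidence. With no filter, 1.7% of all genes passed in either direction for KO AKFP against KO AKF. Over all genes, KO AKFP against plain KO gave 1666 higher and 1671 lower, and 2608 higher and 1148 lower with equal FPKM sums. The causes were not tested. Deviations of same-numbered libraries correlated at 0.024 to 0.52 in tissue and -0.039 to 0.091 in organoids, not over 0.1 in every pair, so the numbers were not taken to pair them. With the replicate number as a block, 8 of 10 genes passed for KO AKFP against KO AKF (27.7% of all genes in either direction). Against plain KO 9 passed (28.7% of all genes), and these 2 counts too are a description only. The day 4 median against WT Lgr5-high stayed at -1.38 with the block. Of the 10 tissue pairs 7 correlated at over 0.1, and the block moved the counts over all genes to 432 (155 without it) between the WT gates, 276 (0) between the KO day 4 gates, 751 (414) for KO day 6 against KO day 4 Lgr5-high and 15 (7) against KO day 4 Lgr5-low, while 0 of the 10 genes passed in each. Without the 2 libraries that stood apart, a setting chosen after seeing the data, KO day 6 against KO day 4 Lgr5-high gave 0 genes. Fitted on just its own 2 groups, that comparison also gave 0 and the WT gates gave 1432. With equal FPKM sums these counts were 67 and 57, with median-of-ratios scaling the WT gates gave 274, with a pseudocount of 0.1 KO day 6 against KO day 4 Lgr5-high gave 266, and with no filter they gave 42 and 32.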
